A study of Mus musculus with 20 samples.

Results

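The comparison described here sets Scriptaid, a hydroxamate inhibitor of histone deacetylases, against its vehicle in mouse extensor digitorum longus (EDL), a fast muscle of the lower hindlimb. It was made on the mean of both legs of each animal and used all 20 arrays of the series, which came from 10 animals, 5 given Scriptaid and 5 given vehicle. The animals of both treatments were male C57Bl6 mice, 8 weeks old. In every animal the right leg had received rAAV6 vectors for D832N HDAC4 and D861N HDAC5 (dnHDAC4/5, catalytically mutated class IIa deacetylases) and the left leg an empty rAAV6 vector, so the controls of this comparison carried the same vectors. Each vector injection held 30 µL with 2.5e+10 vector genomes of each mutant vector and was placed in both compartments of the hindlimb, aimed at EDL and soleus. Scriptaid or vehicle (5% DMSO in PBS) was given into the peritoneum 4 weeks later, so that treatment reached both legs of an animal alike. The dose of Scriptaid and the time to collection of the muscle are not given in the sources used here. The labels also speak of a cross-over design, but each animal number appears under 1 treatment. The titles of the 5 left-leg arrays of Scriptaid animals carry the word vehicle, whereas their treatment entry and description name Scriptaid. The treatment entry was followed.

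Histone deacetylases remove acetyl groups from histone tails, and compounds of the hydroxamate type block their zinc-dependent catalytic site. Class IIa members such as HDAC4 and HDAC5 are known in skeletal muscle for repressing MEF2-dependent genes and for leaving the nucleus when muscle works. Glucocorticoids act on muscle through a ligand-activated receptor that binds DNA near genes such as Fkbp5, Klf15 and the metallothioneins.

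All values below are log2 processed spot intensities minus the 75th percentile of that array, averaged over the left and right leg of an animal, so 0 is the array's 75th percentile. The 75th percentile itself was 425 ± 101 intensity units in Scriptaid animals and 419 ± 46.5 in vehicle animals (SD, n = 5 each), without a detectable difference (exact permutation test, two-sided, p = 0.929, where the smallest possible p is 0.00794). The share of spots well above background was 51.9% on the lowest and 62.6% on the highest array. Values of different animals correlated at 0.968 to 0.988 over all genes, and no pair of arrays held identical values. The muscle markers were bright: of 10 muscle fibre markers tested, 7 were saturated on all 20 arrays, among them Acta1, skeletal actin. Des, desmin, was never saturated and averaged 5.95 ± 0.29 in Scriptaid animals and 5.96 ± 0.23 in vehicle animals. Spots left out for their flags numbered 477 ± 131 per array in Scriptaid animals and 366 ± 39.3 in vehicle animals (exact permutation test, two-sided, p = 0.119). The arrays sat on 5 slides of 4, each slide holding both legs of 1 Scriptaid and 1 vehicle animal under the same replicate number. Each of the 4 groups kept the same place on every slide, so place on the slide and treatment cannot be told apart.

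No gene passed the test for Scriptaid against vehicle on the animal means. In limma's moderated test, 0 of 14591 genes (0%) had a Benjamini-Hochberg adjusted p under 0.05, and the smallest adjusted p was 0.154. At an unadjusted p under 0.05 there were 776 genes (5.32%), of which 469 were higher (3.21%) and 307 were lower (2.1%) with Scriptaid. In 145 genes (0.994%) the animals of both treatments did not overlap, 111 with all Scriptaid animals above (0.761%) and 34 with all below (0.233%). Over all genes the median difference was 0.03 and 56.9% lay above 0. The genes named below therefore had not passed, unless a sentence says otherwise, and are given as values.

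**Figure D1:**
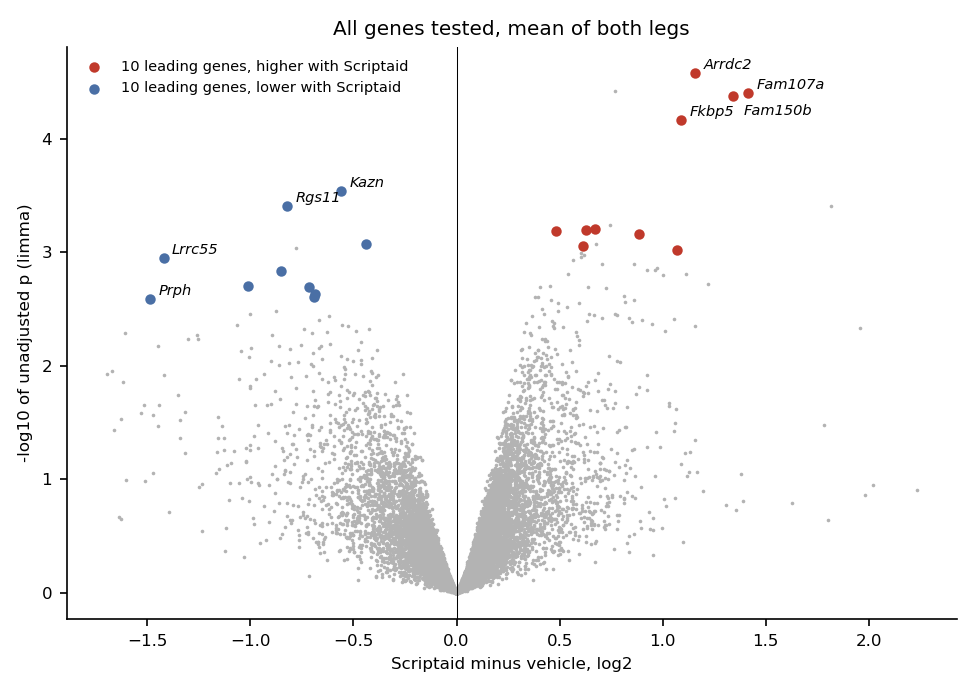
Difference between Scriptaid and vehicle animals (x axis, log2, positive where Scriptaid is higher) against −log10 of the unadjusted p from limma (y axis) for all 14591 genes tested. Coloured are, on either side, the 10 named genes with the smallest p. Arrdc2, Fam107a, Fam150b and Fkbp5 stand above the remaining named genes, all on the higher side, and no gene passed at an adjusted p under 0.05.

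The genes nearest to passing were Arrdc2, Fam107a, Fam150b and Fkbp5, all higher with Scriptaid. Arrdc2, which encodes an arrestin-domain protein, had 2.31, 2.43, 2.17, 2.26 and 2.80 in the Scriptaid animals and 1.06, 1.68, 1.39, 0.97 and 1.08 in the vehicle animals. Every Scriptaid animal lay above every vehicle animal. The difference was 1.16 ± 0.17 (SE), a 2.23-fold higher level, at an adjusted p of 0.154 by limma. Within the 5 slides the difference ran between 0.75 and 1.72.

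Fkbp5 encodes FKBP51, a co-chaperone of Hsp90 that binds the glucocorticoid receptor complex. Its values were 0.16, -0.48, -0.23, -0.20 and -0.55 in Scriptaid animals and -1.30, -0.99, -1.24, -1.43 and -1.79 in vehicle animals. The treatments again did not overlap. The difference was 1.09 ± 0.17, or 2.13-fold, with an adjusted p of 0.201 by limma. The 3 probes of the gene gave 1.09, 1.03 and 0.88. Normexp, another way of correcting background, gave 0.67.

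Fam107a encodes an actin-associated protein known in mouse brain as a stress-responsive gene. It had -1.36, -0.99, -1.13, -1.83 and -1.19 in Scriptaid animals, against -2.12, -2.84, -2.59, -2.82 and -3.21 in vehicle animals. No Scriptaid animal reached down to the vehicle range. The difference was 1.42 ± 0.21, or 2.67-fold (limma adjusted p = 0.154), and it was 0.44 under normexp.

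Fam150b, now named Alkal2, encodes a secreted ligand of the receptor kinases ALK and LTK. It was dim, at -4.19, -3.96, -4.25, -4.15 and -4.20 in Scriptaid animals and at -5.36, -5.77, -4.95, -6.15 and -5.22 in vehicle animals. The probe was well above background on 7 of 10 Scriptaid arrays and on 1 of 10 vehicle arrays. The difference of 1.34 ± 0.20 (limma adjusted p = 0.154) turned to -0.23 under normexp background correction, so its direction depended on how background was treated.

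A clone sequence without a gene symbol had a p as small as these and is not described further. Of the 20 leading genes, these 4 were the ones that passed on the animal mean under at least 1 other setting. With slide as a random block, a fit that lets animals of a slide share a deviation, each reached an adjusted p of 0.0449 by limma. With slide as a fixed block instead, limma called 0 genes (0%), with 1253 (8.59%) at an unadjusted p under 0.05, and all 4 had an adjusted p of 0.441.

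**Figure D2:**
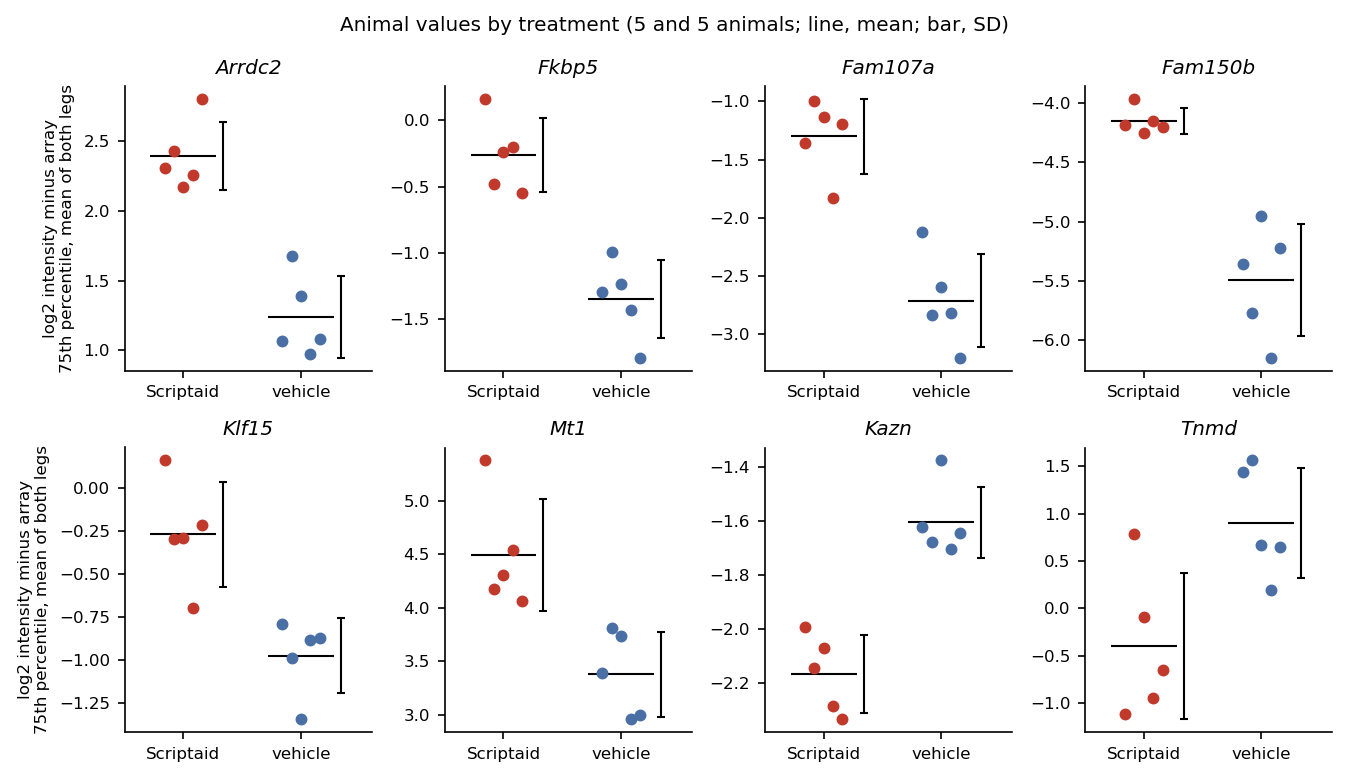
Animal means of both legs (y axis, log2 intensity minus the array's 75th percentile) for 8 genes, with Scriptaid animals on the left and vehicle animals on the right of each panel. Lines are means and bars are SD over 5 animals each. The treatments do not overlap for the 7 genes other than Tnmd, where 1 Scriptaid animal at 0.79 reaches into the vehicle range of 0.19 to 1.56. The genes were chosen for small p on these same values, which favours separation.

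The promoter windows of these genes are shown because they carry the values nearest to passing. The 4 genes were chosen after their values were seen. Each window holds 250 bases before and 50 after the start, from RefSeq on GRCm38.p6, written 5′ to 3′ on the gene's strand, with matches to any of the searched motifs in capitals. Searched on both strands were AGAACA (the glucocorticoid receptor half-site), GGGCGG (the GC box), CACGTG (an E-box), TGACGTCA (the cyclic AMP response element), a MEF2-type core and GAANNTTC (a heat shock element core).
Arrdc2, chr8:70839671-70839970, minus strand: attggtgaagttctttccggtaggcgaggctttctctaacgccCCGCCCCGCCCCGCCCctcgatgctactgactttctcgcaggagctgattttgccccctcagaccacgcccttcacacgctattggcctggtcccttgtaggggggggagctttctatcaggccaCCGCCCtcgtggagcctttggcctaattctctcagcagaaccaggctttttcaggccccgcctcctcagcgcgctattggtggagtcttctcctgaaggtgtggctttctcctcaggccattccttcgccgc
Fkbp5, chr17:28486100-28486399, minus strand: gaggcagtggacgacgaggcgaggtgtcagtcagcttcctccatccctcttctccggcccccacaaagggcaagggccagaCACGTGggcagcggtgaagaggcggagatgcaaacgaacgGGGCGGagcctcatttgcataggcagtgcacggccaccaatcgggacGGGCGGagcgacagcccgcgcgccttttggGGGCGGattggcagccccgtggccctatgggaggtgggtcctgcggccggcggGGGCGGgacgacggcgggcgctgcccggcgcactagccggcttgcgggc
Fam107a, chr14:8317558-8317857, minus strand: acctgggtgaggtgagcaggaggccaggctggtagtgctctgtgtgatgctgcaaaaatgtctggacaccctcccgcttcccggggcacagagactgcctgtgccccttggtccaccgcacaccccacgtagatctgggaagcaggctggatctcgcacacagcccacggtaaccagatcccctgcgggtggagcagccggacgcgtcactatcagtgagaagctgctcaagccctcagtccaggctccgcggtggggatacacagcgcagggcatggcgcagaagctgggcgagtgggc
Alkal2, chr12:30884074-30884373, plus strand: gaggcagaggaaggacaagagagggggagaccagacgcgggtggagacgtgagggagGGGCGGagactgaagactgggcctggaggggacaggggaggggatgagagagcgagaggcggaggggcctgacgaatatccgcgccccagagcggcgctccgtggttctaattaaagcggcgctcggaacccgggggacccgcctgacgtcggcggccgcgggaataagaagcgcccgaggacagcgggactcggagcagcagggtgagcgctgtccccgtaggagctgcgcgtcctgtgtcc
The GC box matched 4 times in the Arrdc2 window, where 3 of the matches overlap, 4 times in the Fkbp5 window and 1 time in the Alkal2 window. The E-box matched 1 time, in the Fkbp5 window. The Fam107a window, the first of 3 in the table, held none of the 6 motifs. Of all 32851 windows, 35.7% hold the GC box, 7.15% the E-box and 19% the half-site AGAACA, which none of the 4 windows holds. The cyclic AMP element stands in 1.79%, the MEF2-type core in 3.69% and the heat shock core in 7.86%. A match in these letters is a description of the window and not a binding site.

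The other leading genes on the higher side were Plin4, Pim3, Prkd1, Map3k6, Lrg1 and 8430408G22Rik (now Depp1). Plin4, a perilipin that coats lipid droplets, was bright and had 6.52, 6.22, 6.36 and 6.11 in 4 Scriptaid animals and 5.47, 5.65, 5.62 and 5.77 in 4 vehicle animals. Scriptaid animal 5 and vehicle animal 3 lacked a usable spot in 1 leg. The Plin4 values of the treatments did not overlap, with a difference of 0.67 ± 0.13. The kinase genes Pim3 and Map3k6 differed by 0.63 ± 0.13 and 0.89 ± 0.18. Prkd1, whose product protein kinase D1 phosphorylates class IIa deacetylases, differed by 0.48 ± 0.10 at a low level, between -1.93 and -1.45 in Scriptaid animals and between -2.26 and -2.11 in vehicle animals, and normexp gave 0.12. Lrg1, a secreted leucine-rich glycoprotein, differed by 0.61 ± 0.13 and 8430408G22Rik by 1.07 ± 0.24. For all 6 the animals measured in both legs did not overlap, which a choice by smallest p favours. The limma adjusted p was 0.722 for each. Map3k6 rests on 4 Scriptaid and 5 vehicle animals. Scriptaid animal 3, left out for a missing right-leg value, had 1.74 in its left leg. That lies within the left-leg vehicle range of 1.22 to 2.10, so the Map3k6 separation depends on leaving this animal out.

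The 10 leading genes on the lower side were mostly dim. Kazn, encoding kazrin, had -1.99, -2.14, -2.07, -2.28 and -2.33 in Scriptaid animals and -1.62, -1.68, -1.38, -1.70 and -1.64 in vehicle animals. The treatments did not overlap, and the difference was -0.56 ± 0.11 (limma adjusted p = 0.701), while a second, dimmer Kazn probe gave -0.11. Rgs11, a regulator of G protein signalling, differed by -0.82 ± 0.16 and was well above background on 2 of 10 Scriptaid arrays and 5 of 10 vehicle arrays. Hunk, a kinase, differed by -0.85 ± 0.20, and Igsf1, a membrane protein of the immunoglobulin superfamily, by -1.01 ± 0.25, with -0.86 from its second probe. Slc16a12, a transporter of the monocarboxylate family, differed by -0.44 ± 0.10.

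Prph, encoding peripherin, an intermediate filament of nerve cells, differed by -1.49 ± 0.38, and by -0.79 under normexp. It lay between -6.71 and -4.74 in Scriptaid animals and between -4.79 and -3.35 in vehicle animals. The Prph ranges touched by a small overlap, and the probe was well above background on 2 of 10 Scriptaid arrays and 5 of 10 vehicle arrays. Lrrc55, an auxiliary subunit of BK potassium channels, was well above background on 5 of 10 vehicle arrays and on no Scriptaid array. Its means were -5.43 in Scriptaid and -4.0 in vehicle animals (limma adjusted p = 0.722), and the animals of both treatments overlapped. With a bound of -4.52 in place of the Scriptaid mean, the level was 1.43-fold lower with Scriptaid. The vehicle mean also rests on arrays not well above background, so this fold is not a firm lower limit. Slc24a2, a sodium-calcium-potassium exchanger, and Pcdhb16, a clustered protocadherin with close paralogs, both differed by -0.69, with SE of 0.18 and 0.17. Ptpn14, a tyrosine phosphatase, differed by -0.71 ± 0.18, but its other 3 probes gave -0.25, 0.03 and 0.37, so the gene has no settled direction.

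Both legs contributed to most of these differences. The genes were chosen on the mean of both legs, so agreement between legs is no separate support. Arrdc2 differed by 1.11 ± 0.20 in the left, empty-vector legs and by 1.20 ± 0.23 in the right, dnHDAC4/5 legs. Fkbp5 differed by 1.04 ± 0.20 on the left and 1.14 ± 0.19 on the right. Fam150b was less even, at 0.66 ± 0.34 on the left and 2.02 ± 0.28 on the right, and so was Fam107a, at 1.76 ± 0.38 on the left and 1.07 ± 0.17 on the right. Slc16a12 differed by -0.03 ± 0.15 on the left and -0.84 ± 0.11 on the right. The test of the difference itself, right minus left, gave 0 of 14591 genes (0%) by limma, with 713 at an unadjusted p under 0.05 (4.89%). For Slc16a12 that difference was -0.81 ± 0.19 with an adjusted p of 0.91, and for Fam150b it was 1.37 ± 0.49 with an adjusted p of 0.91. Within 1 leg, limma called 0 of 14591 genes on the left (0%, 669 or 4.59% at an unadjusted p under 0.05) and 0 on the right (0%, 841 or 5.76%). The smallest adjusted p was 0.0552 on the left and 0.157 on the right.

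**Figure D3:**
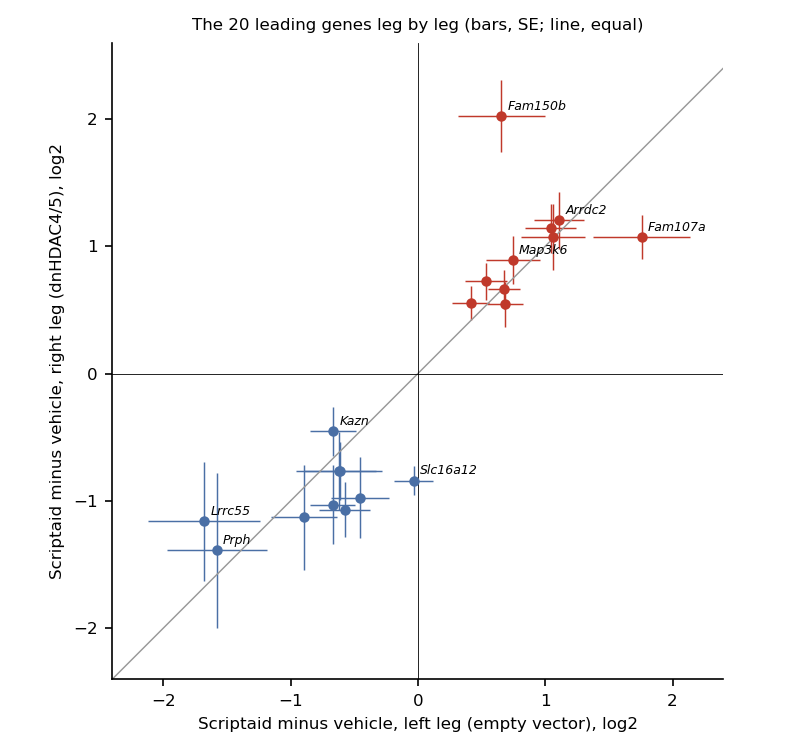
Scriptaid minus vehicle (log2) in the right, dnHDAC4/5 legs (y axis) against the left, empty-vector legs (x axis) for the 20 leading genes. Red points were higher and blue points lower with Scriptaid on the animal mean, bars are SE, and the grey line marks equal values. All 20 have the same sign in both legs, but they were chosen on the mean of these same values, which favours such agreement. Fam150b and Slc16a12 lie farthest toward the right leg.

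Glucocorticoid targets lay almost all on the higher side. Of 28 genes on that list, 27 are on the array and 24 were tested. Per1 and Angptl4 have their spots only in the edge zone left out here, and Sgk1 lost its spots on most arrays. None passed the test, 23 of 24 were higher with Scriptaid, and 12 had an unadjusted p under 0.05, all higher (all-gene share 3.21%). The median difference was 0.48, against 0.03 over all genes, of which 56.9% were higher. The median over the list, with each gene set against its vehicle mean, lay between 0.33 and 0.61 in the 5 Scriptaid animals and between -0.24 and 0.29 in the 5 vehicle animals, so the treatments did not overlap. In 8 of the 24 genes the animals measured in both legs did not overlap (all-gene share in that direction 0.761%). The list was chosen with earlier results of these data known and holds leading genes such as Arrdc2 and Fkbp5. Its separation of the animals is therefore no independent support.

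Mt2, a metallothionein that binds zinc and copper, had the largest difference on the list. Its values were 6.62, 5.03, 4.68 and 4.72 in 4 Scriptaid animals and 3.54, 4.50, 3.64, 2.86 and 1.99 in vehicle animals. Scriptaid animal 5, left out for a missing right-leg value, had 3.24 in its left leg. That lies within the left-leg vehicle range of 1.42 to 3.79. The Mt2 difference was 1.95 ± 0.54, or 3.88-fold (limma adjusted p = 0.814), and the spread between animals was wide. Mt1, its neighbour and close relative, had 5.37, 4.18, 4.31, 4.54 and 4.06 in Scriptaid animals and 3.39, 3.81, 3.73, 2.96 and 3.00 in vehicle animals. Its treatments did not overlap, with a difference of 1.11 ± 0.27, and 0.65 from its second probe. Both genes are close paralogs, and cross-hybridisation between their probes was not tested. Of the 6 genes tested on the metallothionein and zinc export list, the remaining 4 lay between -0.25 and 0.22.

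Klf15, a Krüppel-like factor that takes part in amino acid breakdown in muscle, had 0.16, -0.29, -0.29, -0.70 and -0.22 in Scriptaid animals and -0.79, -0.99, -1.35, -0.88 and -0.87 in vehicle animals. Every Scriptaid animal was above every vehicle animal, with a difference of 0.71 ± 0.16 (limma adjusted p = 0.722). The transcription factor gene Foxo1 differed by 0.60 ± 0.15 without overlap. Fbxo32, the muscle ubiquitin ligase also called atrogin-1, differed by 0.55 ± 0.15 over 4 Scriptaid and 3 vehicle animals. Ddit4, an inhibitor of mTORC1 signalling, differed by 0.64 ± 0.22, Sesn1 by 0.49 ± 0.17, Errfi1 by 0.45 ± 0.18 (0.30 without vehicle animal 5) and Nfkbia, the inhibitor of NF-κB, by 0.40 ± 0.17. For Sesn1 a second probe gave 0.01. Named after their values were seen, these members had limma adjusted p values of 0.8 or more.

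**Figure D4:**
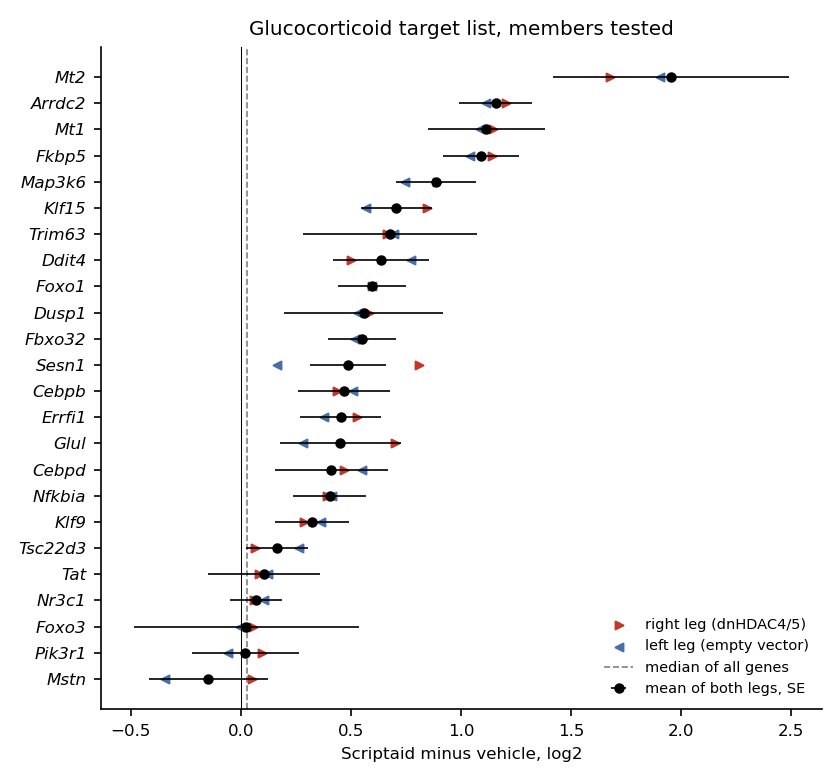
Scriptaid minus vehicle (x axis, log2) for the 24 genes tested of the glucocorticoid target list. Black points are the mean of both legs with SE, red triangles the right leg and blue triangles the left leg, and the dashed line is the median of all genes at 0.03. The points run between -0.15 for the lowest gene and 1.95 for Mt2, with 23 of 24 above 0.

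Krüppel-like factors, zinc-finger regulators of transcription, were higher in 11 of 12 genes tested (all-gene share 56.9%), with a median of 0.38. An unadjusted p under 0.05 was reached by 5, all higher (all-gene share 3.21%). Beside Klf15 these were Klf4 (0.64 ± 0.16), Klf2 (0.78 ± 0.24 over 4 Scriptaid and 5 vehicle animals), Klf12 (0.49 ± 0.18) and Klf3 (0.45 ± 0.20). Klf4 had 3.29, 3.68, 3.57, 3.79 and 3.20 in Scriptaid animals against 2.86, 3.16, 3.05, 2.75 and 2.52 in vehicle animals, without overlap. The Klf2 difference turned to -0.08 when a leg could stand for its animal alone. Over the list, the animals' medians lay between 0.19 and 0.46 with Scriptaid and between -0.09 and 0.12 with vehicle. Klf15 stands on this list and on the glucocorticoid list. Both lists were chosen with earlier results of these data known, so neither separation is independent support.

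Regulators of oxidative metabolism that respond to exercise were higher in 24 of 26 genes tested (all-gene share 56.9%), by a median of 0.16. Their animal medians overlapped, lying between -0.06 and 0.29 with Scriptaid and between -0.04 and 0.09 with vehicle. An unadjusted p under 0.05 was reached by 3, all higher (all-gene share 3.21%). Ppargc1a encodes PGC-1α, a coactivator of mitochondrial genes. It had 3.25, 3.01, 3.42, 3.36 and 3.05 in Scriptaid animals and 2.71, 2.79, 2.66, 2.95 and 2.72 in vehicle animals. The treatments did not overlap, with a difference of 0.45 ± 0.11 (limma adjusted p = 0.748). Its second probe gave 0.40 and normexp 0.71. Ppara, the fatty acid-sensing nuclear receptor PPARα, differed by 0.77 ± 0.21, between 1.99 and 3.08 with Scriptaid and between 1.25 and 1.88 with vehicle. Nr4a1, an orphan nuclear receptor gene, differed by 0.46 ± 0.19 and its spot was saturated on 3 arrays.

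Fatty acid uptake and oxidation genes were higher in 17 of 21 tested (all-gene share 56.9%), with a median of 0.21. Their animal medians overlapped, at -0.14 to 0.43 with Scriptaid and -0.23 to 0.31 with vehicle. None had an unadjusted p under 0.05. Oxidative phosphorylation genes were higher in 13 of 29 with a median of -0.03 and none at that level, but 21 of the 29 had a spot saturated on at least 1 array. Branched-chain amino acid breakdown genes were higher in 19 of 20, with a median of 0.16. Here too the animal medians overlapped, at 0.02 to 0.28 with Scriptaid and -0.14 to 0.12 with vehicle. An unadjusted p under 0.05 was reached by 2, both higher (all-gene share 3.21%). These were Mccc2 (0.93 ± 0.33, with 0.24 from its second probe and 0.62 without vehicle animal 5) and Ivd (0.34 ± 0.13), whose direction turned to -0.13 with flagged spots kept. Glycolysis and glycogen genes were higher in 11 of 20 with a median of 0.03, and 9 of the 20 had saturated spots. There Pfkfb3, the enzyme that makes fructose 2,6-bisphosphate, was the member of smallest p. It had 2.59, 3.65, 3.42 and 3.68 in 4 Scriptaid animals and 4.22, 3.82, 4.15 and 5.16 in 4 vehicle animals. The difference was -1.0 ± 0.33 without overlap among these, and the other 2 Pfkfb3 probes gave -1.01 and -1.46. Scriptaid animal 4, left out for a missing right-leg value, had 4.28 in its left leg. That lies within the left-leg vehicle range of 3.91 to 5.23.

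Immediate early genes are induced quickly by stimuli such as contraction. They were higher in 23 of 26 tested (all-gene share 56.9%), with a median of 0.27. An unadjusted p under 0.05 was reached by 6, all higher (all-gene share 3.21%). Beside Klf4 and Nr4a1 these were Mafk (0.27 ± 0.09), Btg2 (0.64 ± 0.23), Gadd45g (0.46 ± 0.18) and Rhob (0.57 ± 0.24). Animal medians of the list lay between 0.12 and 0.44 with Scriptaid and between -0.35 and 0.32 with vehicle, and so overlapped. Of the clock list, 11 of 16 genes were higher, with Usp2 (0.36 ± 0.12) and Nfil3 (0.55 ± 0.24) at an unadjusted p under 0.05. Among heat shock chaperones, 12 of 19 were higher, and Dnajb1 differed by 0.51 ± 0.16, with 0.24 from its second probe. Insulin and growth signalling genes were higher in 19 of 27, with Igf1r (0.27 ± 0.09) and Insr (0.25 ± 0.09) on the higher and Igf1 (-0.35 ± 0.15) on the lower side. The second Insr probe gave -0.30.

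No histone deacetylase gene that was tested came near passing. Hdac2 was above background on under 5 arrays and Hdac11 had its spots only in the edge zone, so neither was tested. Hdac5 had the largest difference, 0.30 ± 0.15 over 3 Scriptaid and 4 vehicle animals (unadjusted limma p = 0.0891), and it turned to -0.01 in the authors' values. Hdac3 had the lowest, -0.21 ± 0.15, which turned to 0.02 under normexp. Hdac4 differed by 0.05 ± 0.15 and Hdac1 by -0.10 ± 0.11, and of Hdac1 and Hdac3 to Hdac10 none had an unadjusted p under 0.05. Whether the Hdac4 and Hdac5 probes also read transcripts of the dnHDAC4/5 vectors in the right legs was not tested. The list of genes often reported to respond to HDAC inhibitors in cultured cells held 12 of 17 higher genes with a median of 0.11. At an unadjusted p under 0.05 it had Mt1, Mt2, Klf4 and Klf2 on the higher side. On the lower side it had Ccnd1, the cyclin D1 gene, at -0.52 ± 0.15 and Tyms, thymidylate synthase, at -0.65 ± 0.22. The second Tyms probe gave -0.16. Histone genes were higher in 14 of 22 with a median of 0.03. Over all genes, 56.9% were higher. At an unadjusted p under 0.05 by limma, 3.21% of all genes were higher and 2.1% lower.

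**Figure D5:**
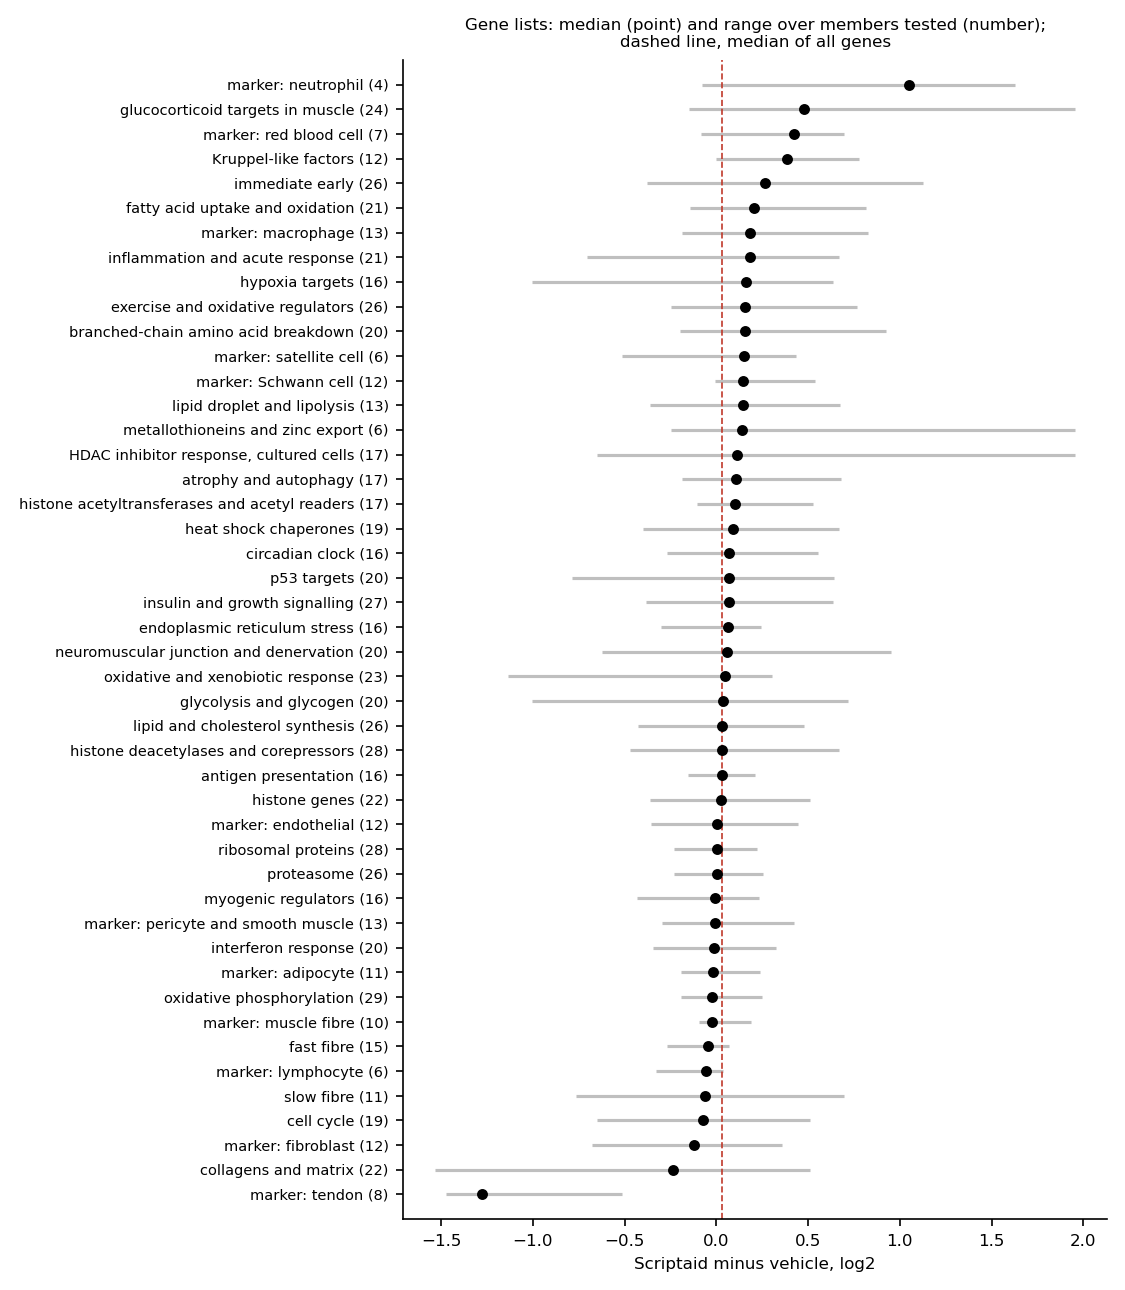
Median (point) and range (grey bar) of Scriptaid minus vehicle (x axis, log2) over the members tested of each of 46 gene lists, with the number tested in brackets. The dashed red line is the median of all 14591 genes at 0.03. Muscle fibre and fast fibre lists are drawn too, but 9 of 10 and 13 of 15 of their genes were saturated on at least 1 array. Tendon markers lie lowest at -1.28 and neutrophil markers, with 4 genes tested, highest at 1.05, followed by the glucocorticoid list at 0.48.

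Some members of other lists also had an unadjusted p under 0.05. Of p53 targets, 12 of 20 were higher (all-gene share 56.9%), with a median of 0.07. An unadjusted p under 0.05 was reached by 4, all higher (all-gene share 3.21%). Beside Sesn1 and Btg2 these were the death receptor gene Fas and Bbc3, which encodes PUMA. Fas differed by 0.46 ± 0.12 without overlap, with 0.22 from its second probe. Bbc3 differed by 0.34 ± 0.12, which turned to -0.03 under normexp. Neuromuscular junction and denervation genes were higher in 14 of 20, with a median of 0.06. There Dach2, a transcriptional corepressor gene linked to denervation in mice, differed by 0.95 ± 0.26 at a dim level and turned to -0.18 under normexp. Hypoxia targets were higher in 11 of 16, among them the histone demethylase gene Kdm3a at 0.28 ± 0.11. Single members on the lower side were Socs2 (-0.70 ± 0.29), an inhibitor of growth hormone signalling, Fads2 (-0.43 ± 0.15), a fatty acid desaturase, and Cyp26b1 (-1.14 ± 0.46), which breaks down retinoic acid. Itga7, the laminin-binding integrin α7, differed by -0.52 ± 0.22, with -0.22 from its second probe, -0.30 without Scriptaid animal 2 and -0.11 under normexp. Tmem8c, the fusion factor myomaker, differed by -0.43 ± 0.19. Their lists had medians between -0.01 and 0.18. Ribosomal protein and proteasome genes both had medians of 0.003, with none of 28 and 26 genes at that level.

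No tendon or matrix gene passed the test. All 8 tendon markers tested, of 10 on the list, were lower, with a median of -1.28. Over all genes, 56.9% were higher. Of these, 5 had an unadjusted p under 0.05 (all-gene share on the lower side 2.1%). Tnmd, a membrane protein of tendon cells, had -1.11, 0.79, -0.09, -0.95 and -0.64 in Scriptaid animals and 1.44, 1.56, 0.67, 0.19 and 0.65 in vehicle animals. The ranges overlapped through Scriptaid animal 2, and the difference was -1.30 ± 0.38 (limma adjusted p = 0.837). Fmod, fibromodulin, differed by -1.44 ± 0.54, Mkx, the tendon regulator mohawk, by -1.47 ± 0.58, Cilp2 by -1.34 ± 0.54 and Thbs4, thrombospondin 4, by -0.70 ± 0.22. Under normexp Mkx gave -0.83 and Thbs4 -0.43, and without slide 1 Cilp2 gave -0.87. Tnmd was lower with Scriptaid within each of the 5 slides, by differences between -2.55 and -0.76. The median over the list lay between -2.11 and 0.16 in Scriptaid animals and between -0.74 and 0.89 in vehicle animals, and within the 5 slides its difference ran between -2.75 and -0.73. Of collagens and matrix genes, 19 of 22 had lower means with Scriptaid, with a median of -0.24 and 1 at an unadjusted p under 0.05, Col12a1 at -1.53 ± 0.59. Their animal medians overlapped, lying between -0.74 and 0.15 with Scriptaid and between -0.69 and 0.30 with vehicle. In a whole muscle, fewer cells of a type and less RNA per cell cannot be told apart, and how much tendon each dissected muscle held was not measured here. The part of tendon tissue in the other differences was not tested.

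Markers of other cell types varied widely between animals. Neutrophil markers, with 4 of 10 genes on the array tested, had a median difference of 1.05, but their animal medians ran between -0.05 and 3.64 with Scriptaid and between -1.59 and 3.22 with vehicle. Red blood cell markers were higher in 6 of 7 (all-gene share 56.9%), with animal medians between -0.37 and 1.41 with Scriptaid and between -0.92 and 0.92 with vehicle. Macrophage markers were higher in 11 of 13 (all-gene share 56.9%) with a median of 0.18, and none had an unadjusted p under 0.05. Adipocyte markers had a median of -0.02, which joined -0.73 in the left legs to 0.69 in the right legs. Muscle fibre markers and fast fibre genes are given no list difference in the text, since 9 of 10 and 13 of 15 of those tested were saturated on at least 1 array. The part of these cell types in the other differences was not tested.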

How the data were processed

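RNA of 20 EDL muscles was measured on 1-colour Agilent arrays, with 100 ng of RNA labelled with Cy3 per the labels' protocols. Per the file headers, the authors read the arrays with Agilent Feature Extraction 9.5.1.1 (protocol GE1-v5_95_Feb07), and the deposited processed signal is a background-corrected intensity on a linear scale. The authors' deposited series matrix holds 23678 spots as a linear ratio, the processed signal over 1 constant per array (97.4% of values within 0.01 or 0.1%), with column medians of 0.27 to 0.33 and no gene centring. How that constant was chosen is not given in the sources used here, and these values served only as an alternative. A genome build is not given in the sources used here.

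Of 43379 non-control spots, 38182 lay in columns 1 to 77 and rows 11 to 522 and were used. Spots flagged as non-uniform or population outliers were left out. Each array's 75th percentile was subtracted on the log2 scale, both legs of an animal were averaged, and both were required. A probe had to be well above background on at least 5 arrays and measured in at least 3 animals per treatment. This left 21085 probes. Where a gene had several probes the brightest on average was used, giving 14591 genes, 12845 with all 10 animals. Names are those of the array design, and 19472 of 31378 accessions matched RefSeq. Scriptaid and vehicle animals were compared with limma 3.58.1 in R 4.3.3 (lmFit, eBayes, Benjamini-Hochberg over all genes). The test was checked on simulated data. The number of arrays limits the precision.

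Named were the 10 symbols with the smallest p among higher and among lower genes, list members and the deacetylases. Of list members, those with an unadjusted p of 0.05 or more are given through their list's counts. Members of smaller p beyond the rule were chosen after their values were seen. The members and lists were chosen with earlier results of these data known. Genes most like the top gene over animals are not given, since animals separate by treatment for it. Alternatives covered background correction, normalization, filters, probes, slide, left-out animals and the authors' values. The labels number the animals within each treatment, and same-numbered animals shared a slide per the file headers. Their deviations from the treatment means correlated at 0.05 to 0.47, and not every number was over 0.1, so the numbers were not taken as pairs. Animals are the replicates.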

Additional observations from a re-analysis of the deposited data

Results flagged for a closer look

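Of 146 groups of 4 or 5 animals looked at, 4 values lay apart from the others of their group, where chance alone gives about 1 in 20. For Kazn, vehicle animal 3 had -1.38, above the 4 other vehicle animals. For Fas, vehicle animal 5 had 0.16, below the other vehicle animals. For Gadd45g, Scriptaid animal 5 had 6.46, above the other Scriptaid animals, which lay between 5.86 and 5.87. Of spots far below their median over the arrays, vehicle animal 5 had 0.433%, the highest share among vehicle animals.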

How the results depend on the processing

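Against 0 genes called on the animal mean, normexp background correction gave 1 (Arrdc2), slide as a random block 5, the 20 arrays with the animal as a random block 2 (Fkbp5 and Arrdc2), and edge spots included 31, of which 6 were higher, Per1 among them, and 25 lower. With edge spots, 48 genes were called in the dnHDAC4/5 legs and 19 for right minus left. Spots far below their median made up 1.91% to 3.43% of the edge zone on the right-leg arrays of Scriptaid animals and at most 0.28% in the other groups. With the replicate block, which is also the slide, 0 genes were called, with a smallest adjusted p of 0.441 and 1253 genes at an unadjusted p under 0.05. It changed no other call. Leaving out each animal gave 0 genes each time, with a smallest adjusted p between 0.0831 and 0.453. Without vehicle replicate 1, and with low spots left out, 1 gene was called in the empty-vector legs (Gm19410 in both, named after its values were seen). In the dnHDAC4/5 legs 1 gene was called without Scriptaid replicate 2 (Chrm1) and 1 without vehicle replicate 3 (Fam150b), so leaving out an animal gave 0 to 1 in either leg. Right minus left stayed at 0 for each left-out animal.

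The 145 genes without overlap became 413 with normexp and 272 with edge spots. With 1 animal fewer there were 195 to 629, the highest without Scriptaid replicate 2, as fewer animals make overlap rarer by construction. Directions turned under normexp for Fam150b (-0.23), Dach2 (-0.18), Gjb1 (-0.24), Hdac3 (0.018) and Bbc3 (-0.032), with edge spots for Dach2 (-0.17), with flagged spots kept and in the authors' values for Ivd (-0.13 and -0.15), in the authors' values for Hdac5 (-0.0089), with the mean of all probes for Insr (-0.026), and with 1 leg where the other was left out for Klf2 (-0.081). Differences that kept their direction but shrank by over 1.5 times included, under normexp, Lrrc55 (-0.74), Socs2 (-0.46), Igf1 (-0.19) and Rhob (0.34). With the mean of all probes Kazn (-0.33), Sesn1 (0.25) and Tyms (-0.41) shrank, and with flagged spots kept Klf2 (0.03). In the authors' values Klf2 (0.02), Fbxo32 (0.37), Nr4a1 (0.30) and Mkx (-0.92) shrank. So did Btg2 without slide 3 (0.38), Dnajb1 without slide 4 (0.33) and, without slide 5, Gadd45g (0.26). The cause was not tested for any of these. The share of all genes that were higher ran between 44.8% without a filter on dim probes and 65% with median scaling. The medians of the glucocorticoid and tendon lists kept their signs in all 30 alternatives (0.42 to 0.63 and -1.67 to -0.85). Dim probes limit Fam150b, Rgs11, Lrrc55, Pcdhb16 and Prph, which few arrays placed well above background. Low spots left out and leaving out each slide were chosen after seeing the data.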
